A study of Rattus norvegicus with 30 samples.

Results

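Transcript levels in the amygdala were compared between rats that had met the scent of a predator and reacted little, and rats that had not been exposed. The comparison took the arrays whose rat identifier begins with F, with 5 arrays labelled as minimal behavioural response and 5 labelled as control, so 10 of the 30 arrays of the study. All 30 rats were adult Sprague Dawley rats, and each array carries the identifier of its own rat. The F rats were labelled female and the R rats male, although the series' design text speaks of female rats while counting both sexes. Beside the minimal responders and the controls, each sex had 5 exposed rats with an extreme behavioural response. The minimal responders were exposed to the scent and then sorted by behaviour, so that they differ from the controls in exposure and in selection at once. The controls were tested for behaviour too but not exposed. The time between exposure and dissection is not given in the sources used here.

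The amygdala is a group of nuclei in the temporal lobe that links sensory cues, among them odours, to fear, arousal and hormone release. Exposure to a predator's scent activates the hypothalamic-pituitary-adrenal axis, and the glucocorticoids it releases enter the brain and bind the glucocorticoid and mineralocorticoid receptors, which act on transcription. Rats differ widely in lasting behaviour after such an exposure, and minimal responders are the exposed animals whose behaviour stays close to that of unexposed rats.

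Intensities were deposited on a log2 scale, between 6.38 and 15.06 with a median of 7.02 on each array. A probe was tested when it lay above the array median on at least 5 of the 30 arrays, which left 13308 of 22523 probes, 9358 of them with a gene symbol. Differences below are log2 intensities of minimal responders minus controls with the standard error (SE) of 1 limma fit over the 6 groups, and adjusted p values are by Benjamini and Hochberg over all 13308 probes, with a threshold of 0.05. The log2 values carry no background correction that could be checked, so differences of dim probes may be smaller than those of the transcripts. Correlations between the 10 arrays lay between 0.966 and 0.994.

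Of the 13308 probes, 263 (1.98%) passed the threshold, 110 higher (0.827%) and 153 lower (1.15%) in the minimal responders. They stand for 169 named genes, 62 higher and 107 lower, and for 94 probes without a symbol. An unadjusted p under 0.05 was reached by 2105 probes, where 665.4 would fall there by chance with no difference. The median difference over all probes was 0.000238, with 6657 probes above 0. The sizes were moderate: the median was 0.46 among the higher and -0.36 among the lower probes that passed. The largest named fall was that of Klf5 and the largest named rise that of Lxn, a carboxypeptidase inhibitor. A probe without a symbol, ILMN_1359571, rose by 1.42 ± 0.32 (limma, adjusted p 0.016). In 430 tested probes (3.23%) the 5 minimal and the 5 control arrays did not overlap, 196 higher (1.47%) and 234 lower (1.76%), and 182 of the 263 probes that passed were among them.

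**Figure D1:**
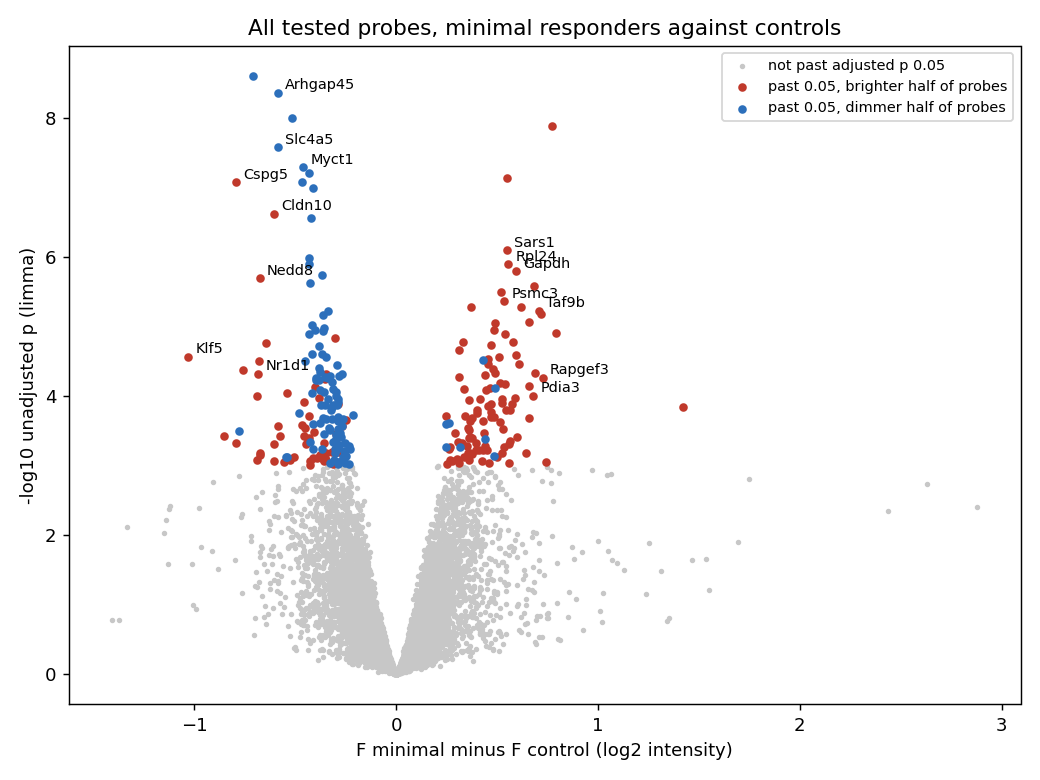
Every tested probe by its log2 difference, F minimal minus F control, against the unadjusted p of the limma fit on a log10 axis. Red points passed the adjusted threshold of 0.05 and lie at or above the median of the probe means (7.69), blue points passed and lie below it, and most of the blue points fall on the lower side (98 lower, 8 higher).

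The rises and the falls came from different parts of the intensity range. When the probes were split at the median of their means, 7.69, 102 of the 110 higher probes lay in the brighter part and 98 of the 153 lower probes (64.1%) in the dimmer part. Over those 98 probes the median of the group means was 7.23 in the F controls and between 6.89 and 6.94 in the other 5 groups, close to the array median. The filter asks for at least 5 arrays above the array median, which is the size of each group. A probe high in the F controls alone could therefore be tested. How many of the 98 entered in that way was not counted. With the stricter filter (60th percentile on 15 arrays) 90 higher and 50 lower probes passed. The F control mean was the highest or lowest of the 6 group means in 239 of the 263 probes, against 35.8% of all tested probes, and the F minimal mean in 111 of them, against 28.3%. The 263 were chosen for a difference between these means, which by itself moves both toward the ends. The excess over the shares of all tested probes therefore follows at least in part from that choice. In 47 of the 263 probes all 5 F control arrays lay outside the range of the other 25 arrays, a count not taken over all tested probes. These counts describe where the controls stood, and no source used here gives their chip or scan positions, so a difference between controls and exposed rats and a difference between array runs cannot be told apart.

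The 10 arrays also differed in the level of 1 probe and in markers of cell types and regions. A probe for the ribosomal protein gene Rpl37l1 parts the 30 arrays into 14 with low values (8.98 to 10.07) and 16 with high values (11.91 to 12.73). All 5 F controls and minimal responders 2 and 3 were in the low set. This split, called the array state below, rests on that probe alone. Whether other probes follow it, and what causes it, was not tested. Of 28 oligodendrocyte and myelin genes, 27 were above 0 in the difference, with a median of 0.53 and none past the threshold. Their mean z value over the list was -1.12, -1.14, 0.87, 0.84 and 0.68 in controls 1 to 5 and 1.37, 1.48, 1.46, -0.44 and -0.26 in minimal responders 1 to 5, so controls 1 and 2 were low and minimal responders 1, 2 and 3 high. The same 3 minimal responders led the 13 hypothalamic markers, whose mean ran from -0.26 to 0.26 in controls and from -0.46 to 1.34 in minimal responders. Pmch, the precursor of melanin-concentrating hormone of the lateral hypothalamus, read 13.10, 11.21 and 13.73 on their arrays and between 7.19 and 8.79 on the other 7. Avp, the vasopressin precursor, was 6.95 to 7.49 in controls and 9.84, 10.45, 8.47, 7.89 and 7.58 in minimal responders, a difference of 1.54 ± 0.63 (limma, adjusted p 0.217) with no overlap. Among the controls, control 3 stood highest in striatal and central amygdala neuron markers (2.29, the others -0.50 to -0.17). Controls 4 and 5 stood highest of the controls in thalamic markers (1.48 and 1.32, the others -0.54 to -0.36). In minimal responders 1 to 5 the striatal mean was 1.05, 0.16, 1.21, 0.46 and -0.61. Their thalamic mean was 0.71, 0.81, 0.72, -0.54 and -0.42. None of the 10 blood cell genes was above 0, with a median of -0.11 and none past the threshold. Hbb-b1, a beta globin, gave -0.98 ± 0.31 (limma, adjusted p 0.101). In bulk tissue, fewer cells of a type and less RNA per cell cannot be told apart.

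**Figure D2:**
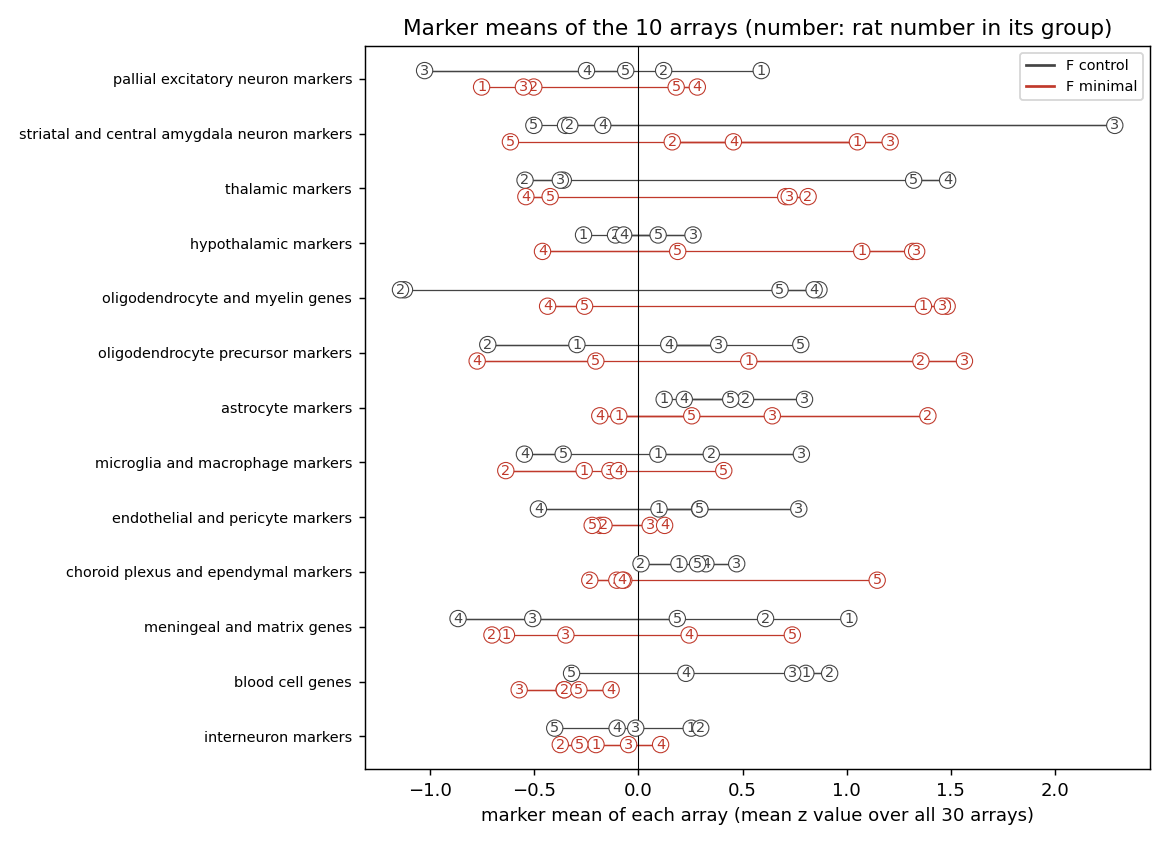
Mean z value of each marker list on each of the 10 arrays, taken over all 30 arrays, with the rat's number in its group inside the circle. Minimal responders 1, 2 and 3 are the highest of the 10 in the hypothalamic and in the myelin list, and controls 1 and 2 the lowest in the myelin list.

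As a check of the labelled tissue, the pan-neuronal gene Snap25 lay between 11.98 and 13.10 on the 10 arrays, the GABA synthesis gene Gad1 between 11.92 and 12.91 and the astrocyte gene Gfap between 11.77 and 12.87. Slc17a7, the vesicular glutamate transporter of pallial neurons and of the basolateral amygdala, lay between 6.92 and 9.26, so it reached down to the array median. The choroid plexus gene Ttr reached 13.13 on its highest array and the striatal and central amygdala gene Ppp1r1b ran from 9.71 to 13.87.

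Because leaving out single arrays changed the number of calls, that dependence is given before the genes. Without control 2 the count was 143, without minimal responder 1 it was 144, without control 4 it was 152, and without minimal responder 2 it rose to 429. All 263 probes kept their sign in each of these. A fit with the Rpl37l1 state as a term called 336 probes and shared 145 with the 263, and a fit with the myelin mean called 355 and shared 225. Among the arrays of the low state, with 2 minimal responders against 5 controls, 39 passed, 17 among the 263. Without minimal responders 1, 2 and 3, the arrays with high Pmch, 221 probes passed, 99 of them shared with the 263, and 23 of the 49 named calls remained, a setting chosen after seeing the data. When only the 10 arrays entered the fit, 13 passed, all among the 263. That fit takes its spread from these arrays, while the main fit pools all 6 groups. The median SD of a probe was 0.128 in F controls and 0.168 in F minimal responders. It was 0.115 in R controls and 0.125 in R minimal responders. The printed SE can therefore be too small for the F difference. The genes Sars1, Nedd8, Cspg5, Arhgap45, Myct1 and Tomm22 were the 6 of 49 named calls that remained with 10 arrays, and Cspg5 and Myct1 passed in every setting in which their probes were tested.

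Among proteins of the extracellular matrix and of cell contacts, Cspg5 fell with little spread. It encodes neuroglycan C, a chondroitin sulfate proteoglycan that spans the membrane of neurons and glia in the brain. Cspg5 read 12.70, 12.82, 12.64, 12.74 and 12.59 in the controls and 11.75, 11.96, 11.97, 12.00 and 11.82 in the minimal responders. Every minimal responder lay below every control, by a gap wider than the range within either group. The difference was -0.80 ± 0.11 (limma, adjusted p 0.000111). A second probe of Cspg5 gave -0.63 (adjusted p 0.124), so the 2 probes share the direction but not the call. In the R rats the named probe gave -0.04 ± 0.11, and the difference between the 2 series was -0.75 (adjusted p 0.039).

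Aggrecan, Acan, the core proteoglycan of perineuronal nets, fell from a mean of 7.16 to 6.89 (-0.27 ± 0.06, limma, adjusted p 0.0235), close to the array median. Its call ended without control 2, control 4, control 5 or minimal responder 1 (adjusted p up to 0.0799). Of the 15 measured genes of perineuronal nets and brain matrix proteoglycans, 2 fell and 0 rose, with a median of 0.04. Over all tested probes 1.15% fell and 0.827% rose. Bcan and Vcan, 2 other proteoglycans of the list, gave 0.09 and 0.04 without passing. Hapln2, a link protein of myelinated axons that also stands on the myelin list, gave 1.24 without passing.

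Cldn10, a claudin of cell contacts that counts here as an astrocyte marker, read 10.88, 11.14, 11.32, 11.07 and 11.05 in the controls and 10.66, 10.25, 10.58, 10.54 and 10.42 in the minimal responders. The highest minimal responder stayed below the lowest control. Its difference was -0.60 ± 0.09 (limma, adjusted p 0.000267). It was the 1 of 17 astrocyte markers that passed, while 8 were above 0 and the list's median was -0.02. The mean z value of that list ran from 0.12 to 0.80 in controls and from -0.19 to 1.39 in minimal responders, so the groups overlapped. Pcdhgc3, a clustered protocadherin of cell adhesion, gave 7.36, 7.42, 7.69, 7.47 and 7.48 against 7.10, 7.06, 7.17, 7.24 and 7.07, again without overlap. It fell by 0.36 on the log2 scale (SE 0.08, limma, adjusted p 0.0124).

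Lxn and St3gal4 rose. Lxn was 7.65, 7.49, 7.84, 7.60 and 7.78 in controls and 8.82, 7.69, 8.56, 8.89 and 8.11 in minimal responders, where array 2 lay within the control range. Its difference of 0.74 ± 0.20 was just past the threshold (limma, adjusted p 0.0469) and was lost without any of 8 arrays, controls 1 to 5 and minimal responders 1, 3 and 4 (adjusted p up to 0.142). St3gal4, a sialyltransferase that caps glycans, rose by 0.64 ± 0.17 (limma, adjusted p 0.0399) with minimal responders 1, 2 and 3 at 10.11, 10.30 and 9.80 and the other 2 at 9.52 and 9.50. The controls reached 9.39, so the groups did not overlap, and the 3 high arrays are those high in myelin genes. Its call ended without control 1, 2 or 4 or minimal responder 1, 2 or 3 (adjusted p up to 0.120). It was kept with the myelin mean and with the 3 regional means as covariates.

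Klf5, Zbtb18, Pou3f2, Sub1 and Adnp, which encode regulators of transcription, fell. Klf5, a zinc finger factor of the Kruppel-like family, read 9.65, 9.54, 9.57, 9.49 and 9.86 in controls and 8.55, 8.34, 8.42, 9.33 and 8.33 in minimal responders. Minimal responder 4 stood well above the rest of its group, yet below every control. The difference of -1.03 ± 0.21 (limma, adjusted p 0.00695) was the largest named fall. Of 11 measured Kruppel-like factors, Klf5 was the 1 that passed, and the others lay between -0.23 (Klf7) and 0.10 (Klf14). In the R rats Klf5 gave -0.04 ± 0.21, and the difference between series did not pass (-0.99, adjusted p 0.166).

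Zbtb18, a transcriptional repressor of the developing cortex, was 8.77, 8.19, 7.48, 7.98 and 7.83 in controls and 7.16, 7.52, 7.11, 7.31 and 7.25 in minimal responders. Control 1 was the highest array and control 3 lay just below minimal responder 2, so the groups overlapped. It fell by 0.78 on the log2 scale (SE 0.19, limma, adjusted p 0.0262), a call lost without control 1, 2 or 4 or minimal responder 1, 3 or 5 (adjusted p up to 0.0808). Pou3f2, a POU-domain factor of neurons, fell by 0.69 (SE 0.18, limma, adjusted p 0.0454), with minimal responder 4 at 9.40 inside the control range of 9.06 to 9.83. Its call ended when control 1, 2 or 5 or minimal responder 1, 2, 3 or 5 was left out (adjusted p up to 0.130). The call of Pou3f2 was lost in 16 of 24 settings. Among these were no filter, the stricter filter, 1 probe per named gene, cyclic loess, the myelin mean and the 3 regional means. Sub1, a transcriptional coactivator, fell by 0.61 (SE 0.15, limma, adjusted p 0.034), and lost the call without control 1, 2 or 4 or minimal responder 1, 2 or 5 (adjusted p up to 0.102). Adnp, a homeobox protein of chromatin regulation, fell by 0.43 (SE 0.11, limma, adjusted p 0.0302), with minimal responder 2 at 8.65 inside the control range of 8.54 to 8.85. That call was lost without any of controls 1 to 4 or minimal responders 1, 4 and 5 (adjusted p up to 0.0914).

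In the general transcription machinery, Taf9b rose. It encodes a paralogue of Taf9 found in transcription factor and coactivator complexes. Taf9b read 9.03, 8.67, 8.90, 8.69 and 8.52 in controls and 9.24, 9.64, 9.14, 9.64 and 9.69 in minimal responders. Minimal responders 1 and 3 were the lowest of their group but above all F controls. The unexposed R controls had a mean of 9.37, near that of the F minimal responders (9.47) and above that of the F controls (8.76). The rise was 0.71 ± 0.13 (limma, adjusted p 0.00283), while Taf9 gave 0.07 and Tbp, the TATA-binding protein, -0.09 without passing. Of the 12 measured members of that group 1 rose and 0 fell, with a median of 0.0055.

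Of 14 circadian clock genes 2 fell and 0 rose, beside 1.15% and 0.827% of all tested probes. In all 3 were above 0, and the median was -0.12. Nr1d1 encodes REV-ERB alpha, a haem-binding nuclear receptor that represses clock transcription. Its values were 8.46, 8.87, 8.43, 8.68 and 8.78 in controls and 8.05, 7.80, 7.76, 8.36 and 7.84 in minimal responders. Minimal responder 4 came closest to the lowest control, and the groups did not overlap. Nr1d1 fell by 0.68 on the log2 scale (SE 0.14, limma, adjusted p 0.0092). Npas2, the partner of BMAL1 that substitutes for CLOCK in forebrain, read 7.76, 7.79, 7.57, 7.45 and 7.61 against 7.30, 7.32, 7.24, 7.29 and 6.98. It fell by 0.41 (SE 0.10, limma, adjusted p 0.0224), and the call was lost without control 1, control 2 or minimal responder 5 (adjusted p up to 0.0776).

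The other clock genes did not pass. Bhlhe40, a repressor of the same loop, gave -0.91 (adjusted p 0.0646). Per1 gave -0.14, Per2 0.06, Per3 0.03, Cry1 0.38, Cry2 -0.15, Dbp -0.03 and Bmal1 -0.16. The hour of dissection of each rat is not given in the sources used here, so its part in these values was not tested. In the exposed rats with an extreme response, compared with the same 5 controls, Nr1d1 stood at -0.19 and Npas2 at -0.42.

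**Figure D3:**
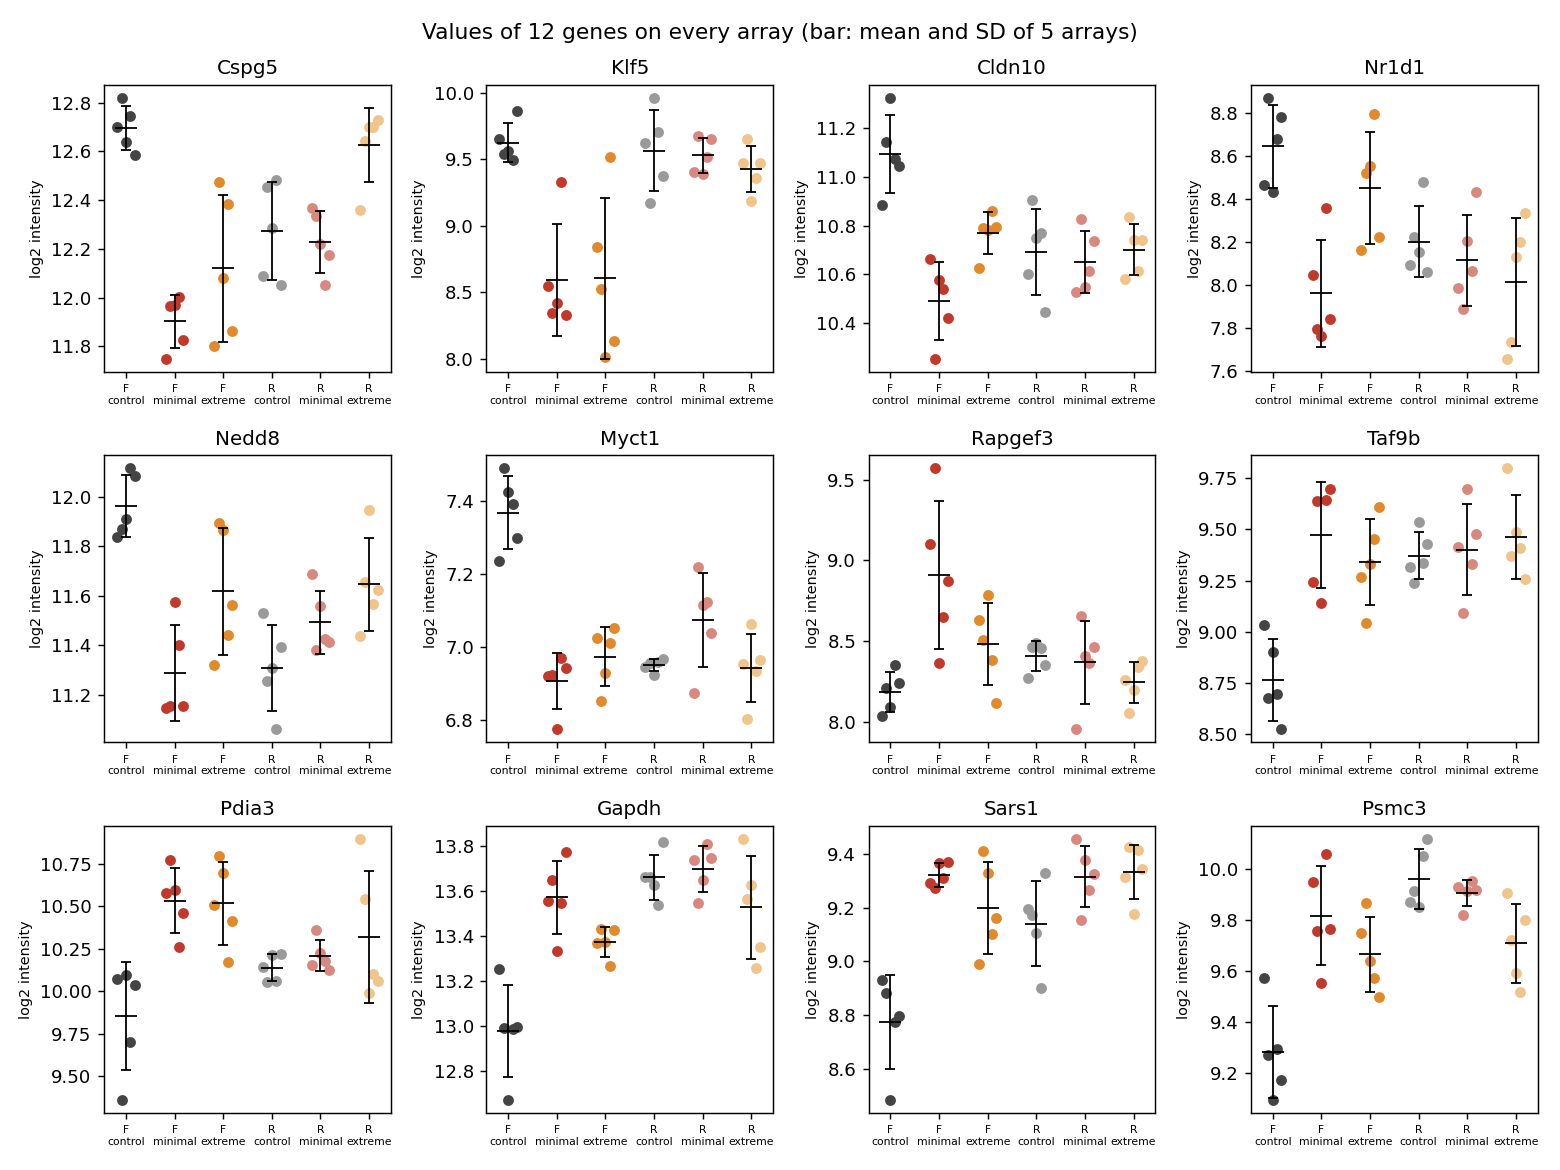
Log2 intensity of 12 genes on every array of the 6 groups, with the mean and SD of 5 arrays beside the points. The F control arrays of Cspg5 (12.59 to 12.82), Cldn10 (10.88 to 11.32) and Myct1 (7.24 to 7.49) lie above the F minimal arrays, and those of Taf9b (8.52 to 9.03), Sars1 (8.49 to 8.93) and Gapdh (12.67 to 13.25) below them.

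Stress hormone genes showed no call. The glucocorticoid receptor Nr3c1 read 6.76 to 7.02 in controls and 6.77 to 6.92 in minimal responders, around the array median, with a difference of -0.0026 ± 0.08 (limma, adjusted p 0.993). Nr3c2, the mineralocorticoid receptor, gave 0.16 ± 0.13 and stood apart on minimal responder 5 alone (8.04, the others 7.36 to 7.51). Of 18 glucocorticoid-induced genes 0 rose and 0 fell, 6 were above 0, and the median was -0.02. Fkbp5, a co-chaperone that restrains the receptor, ran from 9.24 to 10.72 in controls and from 9.27 to 10.76 in minimal responders. Sgk1, a kinase induced by corticosteroids, was 10.76, 10.70, 12.15, 11.41 and 11.38 against 11.80, 12.47, 12.07, 11.12 and 11.45, a difference of 0.50 ± 0.27 (limma, adjusted p 0.364). Ddit4, an inhibitor of mTOR complex signalling, gave 0.49 ± 0.17 and Tsc22d3, which encodes GILZ, 0.38 ± 0.13, neither of which passed (adjusted p 0.132 and 0.113). Crh, corticotropin-releasing hormone, gave -0.07 ± 0.19. Of 27 neuropeptides and their receptors and of 13 neuronal immediate early genes none passed, with medians of 0.02 and -0.12.

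In synapses and neurons a few genes fell. Rims1, a scaffold of the presynaptic active zone, was 9.88, 9.81, 8.78, 9.50 and 9.18 in controls and 8.34, 8.97, 8.64, 8.79 and 8.42 in minimal responders, with control 3 inside the minimal responders' range. It fell by 0.80 on the log2 scale (SE 0.20, limma, adjusted p 0.0333) and was the 1 of 26 synaptic vesicle and release genes that passed. The call was lost without control 1, 2 or 4 or minimal responder 1, 3 or 5 (adjusted p up to 0.110). Brsk1, a kinase of neuronal polarity and presynaptic vesicles, fell by 0.67 (SE 0.17, limma, adjusted p 0.0398), and Aplp2, a relative of the amyloid precursor protein, by 0.67 (SE 0.18, limma, adjusted p 0.0413). Brsk1 lost its call without control 1, 2, 4 or 5 or minimal responder 1 or 5 (adjusted p up to 0.127), and Aplp2 without control 1, 2 or 4 or minimal responder 1, 4 or 5 (adjusted p up to 0.116). With the myelin mean as a covariate Rims1, Brsk1 and Aplp2 all lost their calls, and Rims1 and Aplp2 also with the 3 regional means. Of the 49 named calls the myelin mean ended 6, those of Pou3f2, Psmb6 and Rpsa among them. The 3 regional means ended 9, those of Pou3f2, Psmb6, Rpsa, Sub1, Tubb2b, Lxn and Pcdhgc3 among them. Aplp2 was lost with the replicate block too. A second, dim probe of Aplp2 gave 0.04. Among 16 ionotropic and 17 metabotropic glutamate receptor and scaffold genes and 13 genes of GABA synthesis, transport and receptors none passed.

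Snurf, of the imprinted Snurf-Snrpn locus, read between 12.80 and 13.08 in controls and 11.98, 12.49, 12.74, 12.16 and 11.71 in minimal responders. The controls were tight and the minimal responders spread, without overlap. Its fall was 0.76 on the log2 scale (SE 0.16, limma, adjusted p 0.00896). Dmtn, dematin, which bundles actin under the membrane, fell by 0.69 (SE 0.15, limma, adjusted p 0.0134), a call lost without minimal responder 1 (adjusted p 0.0558). Scara3, a scavenger receptor class A member, fell by 0.86 (SE 0.21, limma, adjusted p 0.0296), with minimal responder 5 at 9.19 inside the control range of 8.95 to 9.46. That call ended without control 1, control 2, minimal responder 1 or minimal responder 3 (adjusted p up to 0.0851). With the array state as a covariate 33 of the 49 named calls remained, Klf5, Nr1d1, Cldn10 and Scara3 among them, and those of Snurf, Dmtn, Rims1, Brsk1, Aplp2, Zbtb18, Sub1, Adnp, Pcdhgc3, Acan, Npas2, Lxn, Tubb2b, Rpl14, Rpsa and Rpl10 were the 16 lost.

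In second messenger signalling, Rapgef3 rose. It encodes EPAC1, an exchange factor for Rap proteins that cyclic AMP activates without protein kinase A. Rapgef3 read 8.04, 8.21, 8.09, 8.35 and 8.24 in controls and 9.10, 9.57, 8.36, 8.65 and 8.87 in minimal responders, with array 3 barely above the highest control. The rise was 0.73 ± 0.15 (limma, adjusted p 0.00959). Of 29 cyclic AMP signalling genes 1 rose and 0 fell, with a median of 0.03, and Rapgef4, which encodes EPAC2, gave -0.38 without passing.

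Protein folding genes lay mostly above 0, with few calls. Over all 13308 tested probes 6657 were above 0 and 0.827% rose. Of 24 endoplasmic reticulum chaperones and stress genes 19 were above 0, with a median of 0.13, and 1 rose. That gene was Pdia3, a disulfide isomerase that works with calnexin and calreticulin, at 10.07, 9.36, 10.10, 9.71 and 10.04 in controls and 10.58, 10.77, 10.60, 10.26 and 10.46 in minimal responders. No minimal responder overlapped the controls, and control 2 was the lowest array. Pdia3 rose by 0.68 ± 0.15 (limma, adjusted p 0.0134), and without control 2 the adjusted p was 0.0552. Hspa5, the chaperone BiP, gave 0.09, Calr 0.23, Pdia4 0.35 and Xbp1 0.32 without passing. Of 17 heat shock chaperones 15 were above 0, with a median of 0.15 and none past the threshold. Cryab, which stands on that list and on the myelin list, gave 0.86.

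The proteasome degrades proteins tagged with ubiquitin. Of 35 proteasome subunits 3 rose and 0 fell, 22 were above 0 and the median was 0.04. Over all 13308 tested probes 0.827% rose, 1.15% fell and 6657 were above 0. Psma1, an alpha ring subunit of the core, read 8.25, 7.98, 8.10, 7.94 and 8.14 in controls and 8.55, 8.39, 8.81, 8.52 and 9.02 in minimal responders, without overlap. It rose by 0.58 ± 0.11 (limma, adjusted p 0.00517). Psmc3, an ATPase of the regulatory particle, read 9.57, 9.27, 9.09, 9.29 and 9.17 against 9.95, 9.76, 9.55, 10.06 and 9.76. Control 1 lay just above minimal responder 3 there, and the difference was 0.54 ± 0.09 (limma, adjusted p 0.00241). Psmb6, a catalytic core subunit, rose by 0.37 ± 0.10 (limma, adjusted p 0.04), but this call was lost without any of 9 of the 10 arrays, minimal responder 4 being the exception (adjusted p up to 0.0985). The other subunits on the list lay between -0.22 (Psmb7) and 0.25 (Psmc6). Psmb10, an immunoproteasome subunit counted under antigen presentation and not here, was named after its values were seen, and the dimmer of its 2 tested probes fell, by 0.36 on the log2 scale (SE 0.10, limma, adjusted p 0.0454), while the brighter gave -0.24 ± 0.15 (adjusted p 0.439).

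Genes of protein synthesis were mixed. Of 59 cytosolic ribosomal protein genes 3 rose and 1 fell, 38 were above 0 and the median was 0.06. The shares over all tested probes were 0.827% higher and 1.15% lower, with 6657 of 13308 above 0. Rpl24, of the large subunit, was 11.23, 11.17, 11.39, 11.25 and 11.16 in controls and 12.01, 11.55, 11.89, 11.65 and 11.86 in minimal responders, without overlap, and rose by 0.55 ± 0.09 (limma, adjusted p 0.000988). Rpl14 rose by 0.31 ± 0.06 (limma, adjusted p 0.00951) from a narrow control range of 13.43 to 13.50 to 13.72 to 13.88. With the array state, itself read from a ribosomal probe, as a covariate, Rpl14, Rpsa and Rpl10 lost their calls and Rpl24 kept its call, and normexp background correction ended the same 3. Rpsa, of the small subunit, rose by 0.37 ± 0.10 (adjusted p 0.0399), and Rpl10 fell by 0.28 on the log2 scale (SE 0.07, adjusted p 0.0395). Rpsa lost its call without control 1, 2, 4 or 5 or minimal responder 1, 3 or 4 (adjusted p up to 0.119), and Rpl10 without control 2, 3 or 4 or minimal responder 1, 4 or 5 (adjusted p up to 0.110). The widest difference in that family, 1.47 for Rpl37l1, did not pass and belongs to the probe that sets the array state. Ribosomal protein genes have many near-identical pseudogene copies, so probes of this family may read more than 1 locus.

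Sars1 encodes the seryl-tRNA synthetase, which charges transfer RNA. Its values were 8.93, 8.88, 8.49, 8.78 and 8.80 in controls and 9.29, 9.27, 9.37, 9.31 and 9.37 in minimal responders. The minimal responders spanned less than the controls and lay above all of them. Sars1 rose by 0.55 ± 0.09 (limma, adjusted p 0.000755). Eif4a1, the helicase of translation initiation, rose by 0.44 ± 0.09 (limma, adjusted p 0.00938) and was the 1 of 34 initiation and elongation factors that passed. Their median was -0.03.

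In energy metabolism, a pair of glycolytic enzymes rose. Glycolysis was not among the lists, and its other enzymes were not counted. Gapdh, glyceraldehyde-3-phosphate dehydrogenase, read 13.25, 12.99, 12.67, 12.99 and 12.99 in controls and 13.56, 13.65, 13.33, 13.55 and 13.77 in minimal responders. Control 1 was the highest control and minimal responder 3 the lowest of its group, and they did not cross. Gapdh rose by 0.59 ± 0.10 (limma, adjusted p 0.00118). Eno1, enolase, rose by 0.54 ± 0.10 (limma, adjusted p 0.0043), from 8.55 to 8.65 in controls 2 to 5 and 9.01 in control 1, to 9.02 to 9.39. Of 56 oxidative phosphorylation subunits 0 rose and 1 fell, 21 were above 0 and the median was -0.04. The gene that fell was Cox4i1, of cytochrome c oxidase, at 13.29, 13.49, 13.43, 13.43 and 13.46 in controls and 13.12, 12.68, 13.21, 13.20 and 12.96 in minimal responders. Its fall was 0.38 on the log2 scale (SE 0.09, limma, adjusted p 0.014). Tomm22, a receptor of mitochondrial protein import, fell by 0.68 (SE 0.14, limma, adjusted p 0.00734), from 9.72 to 9.93 in controls to 8.94 to 9.29.

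**Figure D4:**
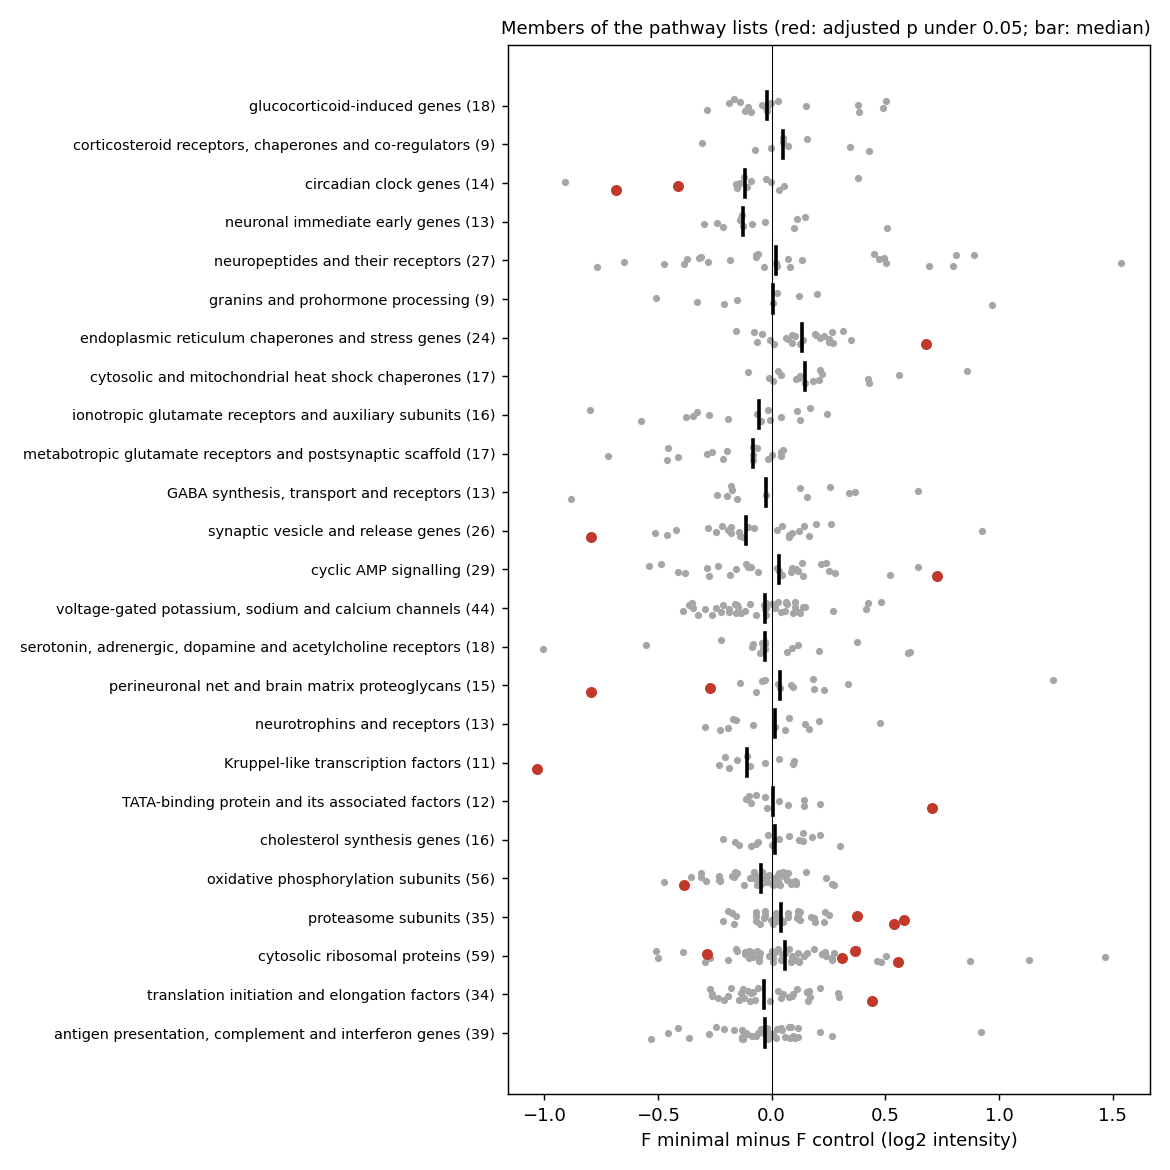
Differences of single genes, F minimal minus F control in log2, for each pathway list with the number of measured members in brackets. Red points passed the adjusted threshold and black bars are list medians, which lie between -0.12 and 0.15 in the 25 lists.

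Ctsd, the lysosomal aspartyl protease cathepsin D, read 9.10, 8.81, 9.00, 9.18 and 9.21 in controls and 9.57, 9.89, 9.73, 9.42 and 9.34 in minimal responders. It rose by 0.53 ± 0.12 (limma, adjusted p 0.014), and without control 2 the adjusted p was 0.0552. Acp2, lysosomal acid phosphatase, rose by 0.37 ± 0.07 (limma, adjusted p 0.00264), from 9.83 to 9.95 in controls to 10.14 to 10.35. Neither gene overlapped between the groups. Snx15, a sorting nexin of endosomes, rose by 0.52 ± 0.12 (limma, adjusted p 0.0156), a call lost without control 2 or minimal responder 1 (adjusted p up to 0.0645).

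Nptn, neuroplastin, is an immunoglobulin-family adhesion molecule of synapses. It read 10.53, 9.82, 10.06, 10.07 and 10.02 in controls and 10.64, 10.58, 10.79, 10.76 and 10.79 in minimal responders. Control 1 came close to minimal responder 2 without reaching it, and the rise was 0.61 ± 0.12 (limma, adjusted p 0.00777). Cth, cystathionine gamma-lyase, makes cysteine and hydrogen sulfide. It rose by 0.52 ± 0.09 (limma, adjusted p 0.00184), from 7.43 to 7.69 in controls to 7.87 to 8.37. Nedd8, the modifier that activates cullin ubiquitin ligases, read 11.84, 11.87, 11.91, 12.11 and 12.08 in controls and 11.15, 11.15, 11.57, 11.40 and 11.15 in minimal responders, without overlap. Nedd8 fell by 0.68 on the log2 scale (SE 0.11, limma, adjusted p 0.00134), and its change differed from that of the R rats by -0.86 (adjusted p 0.0253).

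Promoter windows of RefSeq (assembly GRCr8, 250 bases before to 50 after each gene's start) were searched on both strands for the E-box CACGTG, the palindrome bound by clock and other basic helix-loop-helix factors. It was present in 6.65% of all 27457 windows, in 9.28% of the windows of 7611 tested named genes and in 25 of 144 (17.4%) of the called named genes that had a window, 12 of 55 higher and 13 of 89 lower. Among clock genes Bhlhe40 and Tef held it, 2 of 12, and the windows searched for Nr1d1 and Npas2 did not. The E-box was searched among the calls after their values were known, so these shares are a description. The windows of Ctsd, Nptn, Cth and Nedd8 are printed because they show the match at different distances from the start and in genes that rose and fell. Capitals mark each E-box. The windows are Ctsd at chr1:206968772-206969071 (minus strand), Nptn at chr8:67892460-67892759 (plus strand), Cth at chr2:249661017-249661316 (minus strand) and Nedd8 at chr15:33135473-33135772 (minus strand).
Ctsd: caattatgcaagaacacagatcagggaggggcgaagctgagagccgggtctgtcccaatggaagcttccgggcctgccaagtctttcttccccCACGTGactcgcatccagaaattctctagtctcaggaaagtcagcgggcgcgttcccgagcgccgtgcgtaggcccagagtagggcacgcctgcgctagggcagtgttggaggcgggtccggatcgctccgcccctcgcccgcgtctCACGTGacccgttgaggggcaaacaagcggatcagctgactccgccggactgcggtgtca
Nptn: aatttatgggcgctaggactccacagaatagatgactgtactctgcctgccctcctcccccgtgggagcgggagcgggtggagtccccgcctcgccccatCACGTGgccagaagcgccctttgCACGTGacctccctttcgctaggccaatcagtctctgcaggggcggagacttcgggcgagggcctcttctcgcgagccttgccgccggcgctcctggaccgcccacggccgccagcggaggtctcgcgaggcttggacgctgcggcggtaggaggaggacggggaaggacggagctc
Cth: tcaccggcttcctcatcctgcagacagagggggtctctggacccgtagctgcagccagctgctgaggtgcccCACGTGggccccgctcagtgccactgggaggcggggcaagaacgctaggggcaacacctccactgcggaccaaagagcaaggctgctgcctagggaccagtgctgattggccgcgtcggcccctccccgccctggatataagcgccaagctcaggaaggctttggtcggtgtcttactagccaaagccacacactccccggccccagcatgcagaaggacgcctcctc
Nedd8: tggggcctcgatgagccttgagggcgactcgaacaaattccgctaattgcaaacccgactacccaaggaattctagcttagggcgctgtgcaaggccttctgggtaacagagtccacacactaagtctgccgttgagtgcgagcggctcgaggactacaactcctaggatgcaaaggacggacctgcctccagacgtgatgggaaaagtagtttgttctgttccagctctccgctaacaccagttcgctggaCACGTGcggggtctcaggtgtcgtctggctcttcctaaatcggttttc
The matches begin 157 and 10 bases before the start of Ctsd, 150 and 127 before that of Nptn and 178 before that of Cth, and 3 bases after that of Nedd8. For comparison, the cyclic AMP response element TGACGTCA was in 3.1% of the tested named genes' windows and in 1 of the 144, that of Tmem39a. The endoplasmic reticulum stress element was in 0.184% of the tested genes' windows and in 7 of 19 windows of the chaperone list, among them Hspa5, Calr and Xbp1, none of which passed. The glucocorticoid response element, in its palindromic form, was in 0 of 16 windows of glucocorticoid-induced genes and in 2 of all windows.

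The smallest p values among the falls belonged to dim probes. Arhgap45 read 7.23, 7.57, 7.57, 7.64 and 7.52 in controls and 6.92, 6.97, 6.91, 6.83 and 6.97 in minimal responders. It fell by 0.58 on the log2 scale (SE 0.07, limma, adjusted p 2.9e-05). Slc4a5, a bicarbonate cotransporter of the choroid plexus, fell by 0.59 (SE 0.08, limma, adjusted p 7e-05), from 7.15 to 7.68 in controls to 6.63 to 6.92. It was the 1 of 13 choroid plexus and ependymal markers that passed, while 8 were above 0, with Ttr at 1.55, and the list's mean z value ran from 0.01 to 0.47 in controls and from -0.23 to 1.15 in minimal responders. Spindoc (-0.52 ± 0.06), Myct1 (-0.46 ± 0.06) and the olfactory receptor gene Or7g21 (-0.47 ± 0.06) passed likewise (limma, adjusted p 4.4e-05, 0.000111 and 0.000111). In these 5 genes no minimal responder reached a control, and the minimal responders lay between 6.63 and 7.18, around or below the array median. Outside the F controls, Slc4a5 and Or7g21 reached 6.93 at most, below the array median. Both therefore met the filter of at least 5 arrays through the F controls alone, the group in which they were high. The other 4 groups had means near those of the minimal responders for Myct1, 6.94 to 7.07 beside 7.37 in F controls.

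Whether the exposed rats of the F series differed from each other was asked with extreme minus minimal responders, which share no control array. In that comparison 17 probes passed (0.128%), 9 higher (0.0676%) and 8 lower (0.0601%). Of the 263 probes, 2 were among these 17, and 43 had an unadjusted p under 0.05. The named 1 of the 2 was Pcdhgc3, higher by 0.38 in extreme responders (limma, adjusted p 0.0316), so its extreme responders stood at 0.03 from the controls. Same-numbered minimal and extreme arrays deviated together, and when the array number entered as a replicate block, Pcdhgc3 had an adjusted p of 0.0678, so that call was lost, while Ndrg2 and Apold1 kept theirs (adjusted p 0.00269 and 0.000113). With only these 10 arrays and the block, a setting chosen after seeing the data, 2 probes passed, Apold1 among them and Ndrg2 not (adjusted p 0.0346 and 0.291). Over the 110 higher and the 153 lower probes the median of extreme minus minimal was -0.014 and 0.047. Ndrg2, a gene of astrocytes, was lower by 0.61 in extreme than in minimal responders (adjusted p 0.00131) and read 14.14 to 14.53 in minimal responders against 13.97 to 14.05 in controls, a difference of 0.33 ± 0.09 that did not pass (adjusted p 0.0552). Apold1, an endothelial gene, was higher by 0.78 in extreme responders (adjusted p 3.7e-05) and gave -0.20 in minimal responders.

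Set beside the extreme responders, whose values use the same 5 controls and are therefore not independent, most named genes lay on the same side. Klf5 stood at -1.03 in minimal and -1.02 in extreme responders, Pdia3 at 0.68 and 0.66, Taf9b at 0.71 and 0.58 and Cspg5 at -0.80 and -0.58. Extreme minus control passed in 869 probes (6.53%), 446 higher (3.35%) and 423 lower (3.18%). Nr1d1 stood at -0.68 and -0.19 and Rapgef3 at 0.73 and 0.30, but extreme minus minimal did not pass in either (adjusted p 0.221 and 0.364).

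The R rats, labelled male, gave the same contrast on 10 other arrays. There 0 of 13308 probes passed in limma, 686 had an unadjusted p under 0.05, and array weights gave 2. Of the 263 probes, 245 had a change in the R series below 50% of the size of that in the F series. The 263 were chosen for their F change, so a smaller R change follows in part from that choice. The share over all probes was not counted. The median R change was 0.03 over the higher and 0.0061 over the lower probes. For the 102 brighter higher probes, median group means were 8.88 in F controls, 9.36 in F minimal responders and 9.30 in R controls. For the 55 brighter lower probes they were 9.62, 9.12 and 9.38. The R control means of Nptn (10.92), Gapdh (13.66), Psmc3 (9.96), Tomm22 (9.11) and Nedd8 (11.31) lay nearer the F minimal means. That of Klf5 (9.57) lay nearer the F control mean. Tested directly, the change differed between series in 22 probes (0.165%), 2 toward higher (0.0150%) and 20 toward lower (0.150%) in the F series, and 21 of them were among the 263. Named among the 22 were Cspg5, Nedd8, Anxa5, Adnp, Pcdhgc3, Arhgap45, Spindoc, Slc4a5, Myct1, Or7g21 and Ndrg2. Slc4a5 and Or7g21 met the filter only through high F controls, so they lend no independent weight to a fall particular to the F series. The contrast between series holds the same F difference that chose the 263, so the overlap of 21 is not independent. Anxa5, a phospholipid-binding annexin, read 8.85, 8.93, 8.73, 8.51 and 8.72 in F controls and 8.22, 8.05, 7.89, 8.55 and 8.32 in F minimal responders, where array 4 lay just above the lowest control. It fell by 0.54 on the log2 scale (SE 0.12, limma, adjusted p 0.0127) and gave 0.27 in the R rats, a difference of -0.81 (adjusted p 0.039). For Myct1 the difference was -0.58 (adjusted p 0.0024). Counts of this test moved with single arrays, from 2 without F control 4 to 70 without F minimal responder 2, and with the stricter filter 0 passed.

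**Figure D5:**
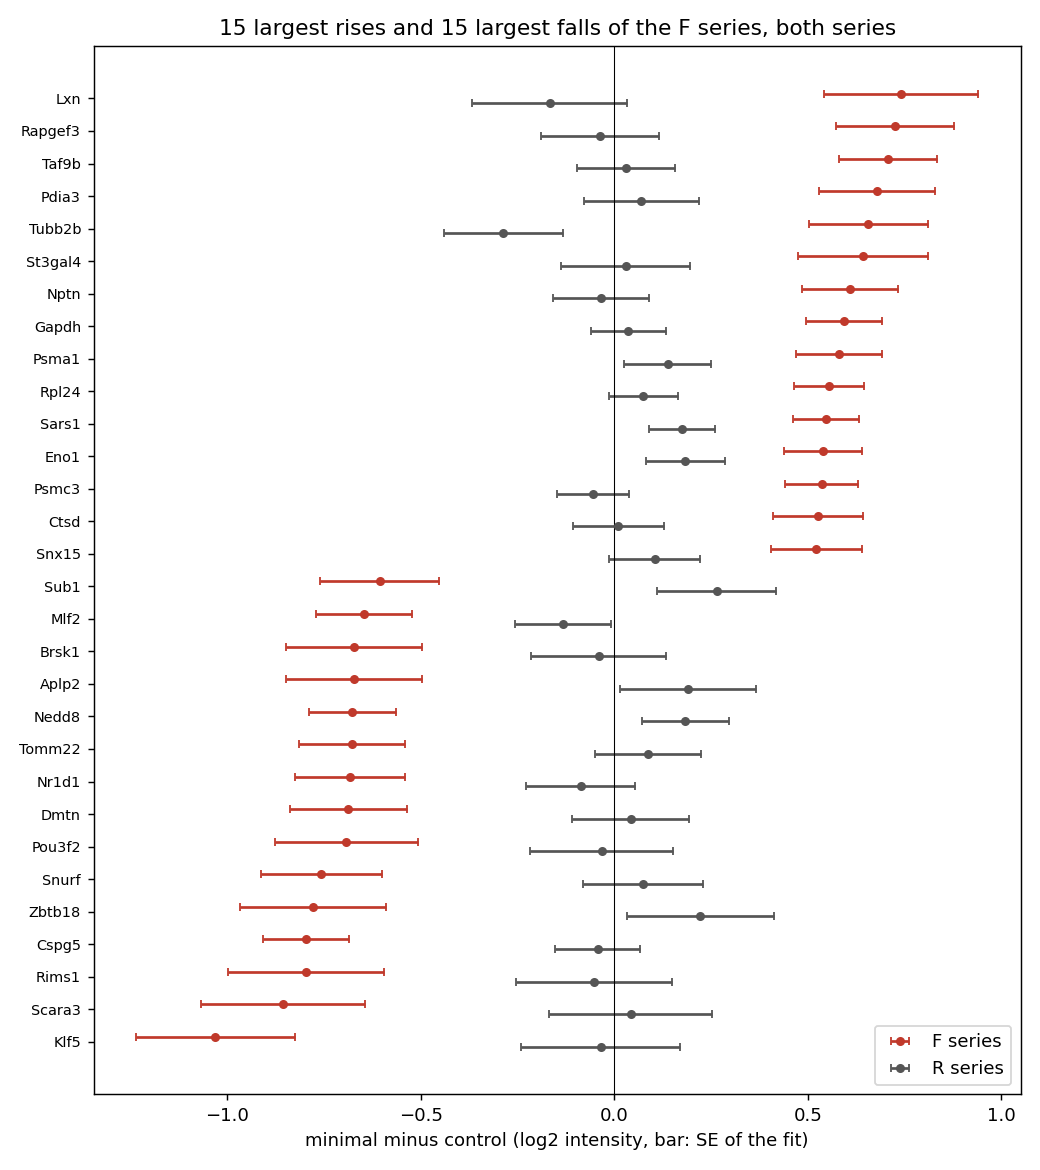
Differences of minimal minus control with the SE of the fit for the 15 largest named rises and falls of the F series, in the F series (red) and the R series (grey). The F values run from -1.03 (Klf5) to 0.74 (Lxn), while the R values of the same genes lie between -0.29 (Tubb2b) and 0.26 (Sub1).

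Tubb2b, a neuronal beta tubulin, had the R value farthest from 0 among the 15 named rises, and on the opposite side. It read 9.29, 9.34, 9.48, 9.80 and 9.83 in F controls and 9.99, 10.34, 9.84, 10.15 and 10.69 in F minimal responders, with array 3 level with the highest controls. The rise was 0.66 ± 0.15 (limma, adjusted p 0.0202), lost without control 1, control 2 or minimal responder 5 (adjusted p up to 0.0711). The difference between series for Tubb2b was 0.94 and did not pass (adjusted p 0.0667).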

How the data were processed

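Amygdala RNA was labelled with biotin after column isolation and measured on Illumina BeadChips, with 1 array per rat, per the labels' protocols. The values used were the log2 intensities that the authors deposited for 22523 probes, and the scale was judged from their range. All columns share a median of 7.02 and quartiles of 6.79 and 8.04, as after quantile normalization. How background was handled and which software normalized the arrays is not given in the sources used here. A second table with 60 columns was set aside, since none of its columns could be tied to a sample.

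Of the probes, 13793 carried 1 gene symbol, 0 several and 8730 none. Gene identifiers of 13752 matched RefSeq GRCr8, and 0 symbols changed. Tested were 13308 probes that exceeded the median of an array 5 times or more, standing for 9165 named genes, 184 with several probes. The means of the 6 groups were fitted with limma 3.58.1 in R 4.3.3 (24 residual degrees of freedom), and the same fit served all comparisons. The scripts were tested on simulated data. The number of arrays limits the precision.

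Named were the 15 largest rises and falls among the calls, the 6 smallest p values each way, called members of each list (up to 6, or the 2 with the smallest p where none passed), Nr3c1, Nr3c2, Fkbp5, Sgk1, Ddit4, Tsc22d3 and Crh, and genes passing in the difference between series or in extreme minus minimal, 103 in all with 49 calls. Not every one is printed. Where a gene has several probes, the brightest stands for it in lists and the called probe elsewhere. Deviations of same-numbered F minimal and F extreme arrays from their group means correlated at 0.146 to 0.687 (other numbers -0.104 on average, 4 of 5 best with their own), so these groups were taken as paired by number, on the data alone. The fits reported do not use the pairing, and for extreme minus minimal blocked values are given where a call was lost. In F minimal minus F control the replicate block kept 46 of the 49 named calls and ended those of Lxn, Rpsa and Aplp2. Marker means are means of z values over the 30 arrays. The groups, lists and genes were chosen with earlier results of these data known. Other settings were filters, variance models, array weights, arrays in the fit, background correction, cyclic loess, a replicate block, the array state, marker means as covariates and left-out arrays.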

Additional observations from a re-analysis of the deposited data

Results flagged for a closer look

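In 5 arrays of a group, 1 array was set apart from the others in 11 of 206 groups of named genes, 6 in controls and 5 in minimal responders. By chance about 1 in 20 groups is set apart, and the count lies near that share. The arrays below are therefore a description. Control 1 was highest in Eno1 (9.01, the others 8.55 to 8.65) and lowest in Spindoc (7.29, the others 7.50 to 7.57) and in Cox4i1 (13.29, the others 13.43 to 13.49). Control 2 was highest in Apold1 (7.94, the others 7.33 to 7.48). Control 3 was lowest in Adra1b, an adrenergic receptor (7.85, the others 10.37 to 11.17), and highest in Adcy5, an adenylyl cyclase of striatal neurons (10.80, the others 8.58 to 8.70). Control 3 is also the highest control in striatal and central amygdala neuron markers (2.29). Minimal responder 3 was lowest in Myct1 (6.77, the others 6.92 to 6.97) and minimal responder 4 highest in Klf5 (9.33, the others 8.33 to 8.55). Minimal responder 5 was lowest in Npas2 (6.98, the others 7.24 to 7.32) and in Adcy5 (8.68, the others 9.86 to 10.17), and highest in Nr3c2 (8.04, the others 7.36 to 7.51).

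The change from control to minimal responder differed between the F and the R series in 22 probes (limma, adjusted p under 0.05). With the stricter filter 0 passed. Slc4a5 and Or7g21, listed next, met the filter only through high F controls. Among the named genes the difference, F minus R, was -0.86 for Nedd8, -0.81 for Anxa5, -0.77 for Adnp, -0.75 for Cspg5, -0.58 for Myct1, -0.56 for Slc4a5, -0.52 for Arhgap45, -0.51 for Pcdhgc3, -0.44 for Spindoc, -0.44 for Or7g21 and 0.62 for Ndrg2. All 5 F controls were in the low Rpl37l1 state and all 5 R controls in the high state, while the minimal responders held both states (3 of 5 high in F and 4 of 5 in R). With the state as a covariate the difference between series passed in 20 probes, 11 of them shared with the 22.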

How the results depend on the processing

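Settings other than those reported changed the number of probes past the threshold more than their direction, since all of the 263 probes that could be tested kept their sign in each. For F minimal minus F control the count was 140 with the stricter filter (60th percentile on 15 arrays), 149 with 1 probe per named gene, 427 with array weights, 70 with only the F arrays, 13 with only the 10 arrays, 39 with the low-state arrays, 154 with F controls 1 and 2 left out together, and 221 (99 shared) with F minimal responders 1, 2 and 3 left out together, both chosen after seeing the data. It lay between 143 and 429 with single arrays left out, 255 with the replicate block, and between 214 and 355 in the others. For F extreme minus F minimal (17) it was 20 with the replicate block, 16 of them shared, 10 with array weights, 7 with the F arrays, 3 with only the 10 arrays and 2 with these and the block (chosen after seeing the data), 26 with the array state, 5 with the low-state arrays and 44 with the myelin mean, and 12 to 29 with single arrays left out. For R minimal minus R control (0) it was 2 with array weights and 0 to 1 with single arrays left out, 1 without R control 4. For the difference between series (22) it was 0 with the stricter filter, 194 with array weights, 12 with normexp, 12 with the replicate block, 20 with the array state (11 shared), 34 with the myelin mean and 3 with the 3 regional means, and 2 to 70 with single arrays left out. The cause was not tested. Fewer arrays leave fewer residual degrees of freedom. The median SD of a probe was also larger in F controls and F minimal responders than in R controls and R minimal responders. The 49 named calls gave 1267 values in other settings, of which 960 passed, 307 did not and 0 changed sign. Among named genes without a call 45 of 1398 values passed and 31 changed sign. Arrays of F control and F minimal with the same number correlated at -0.172 on average (-0.422 to 0.314, other numbers 0.041, and 1 of 5 best with its own), so they share only a number. The low state could not be used for the R series, as no R control is in it. Without detection values that could be matched to samples, signal over background was not measured, which limits what dim probes show.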

Other observations

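Some called genes outside the lists are given here, chosen after their values were seen and without a further test. Of the ubiquitin family to which Nedd8 belongs, Sumo3 (-0.47 ± 0.11) and Sumo2 (-0.35 ± 0.09) were lower in the minimal responders (limma, adjusted p 0.023 and 0.0399). Members of that family that did not pass were not counted. Rbx1, the RING subunit of cullin ligases that Nedd8 activates, gave -0.45 ± 0.11 (adjusted p 0.0248), and Ubqln4, a shuttle factor to the proteasome, -0.45 ± 0.09 (adjusted p 0.00734). Cops3, a subunit of the COP9 signalosome that removes Nedd8 from cullins, was higher by 0.36 ± 0.09 (adjusted p 0.0254), as were Rbck1 (0.29 ± 0.07) and Sharpin (0.32 ± 0.08), partners in the complex that builds linear ubiquitin chains (adjusted p 0.0277 and 0.0333).

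Wars1, the tryptophanyl-tRNA synthetase, was higher by 0.48 ± 0.11 (adjusted p 0.0202) beside Sars1, while Asns, asparagine synthetase, stood at -0.54 ± 0.14 (adjusted p 0.0435). In the Ran cycle of nuclear transport, Ranbp1 gave 0.52 ± 0.11 (adjusted p 0.0105) and Ran -0.29 ± 0.08 (adjusted p 0.0372). Idh3b, of the citric acid cycle, was higher by 0.49 ± 0.09 (adjusted p 0.00363) and Hadha, of mitochondrial fatty acid oxidation, by 0.36 ± 0.09 (adjusted p 0.0398).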
